A study of Gallus gallus with 5 samples.

Results

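The extracellular matrix and integrin genes of the chicken grafts were taken by gene symbol: every numbered collagen chain, every laminin chain, every symbol that begins with the integrin alpha or beta prefix, and fibronectin (FN1). The rule found 36 genes of the 6940 in the files, all of them also in the RefSeq list of chicken symbols. It used no measured value, but members were chosen with earlier results of these data known. The files hold only part of the chicken genes, and LAMB1, LAMC1, ITGA5 and COL1A1, among others, are not among the 6940. Of the 36 genes, 21 reached at least 100 unique molecular identifiers (UMIs, each counting 1 captured transcript) in at least 1 library and are described here. The other 15 stayed below that limit, and the highest level of any of them was 5.19 UMIs for each 1000000 UMIs of the cells summed (CPM), for COL22A1. Just under the limit lay LAMB2, with at most 92 UMIs in a library, and just over it COL14A1, with 159. Single cells came from grafts of the medial somite progenitor region, near the anterior end of the primitive streak, which were moved from GFP transgenic donors to the same site in wild-type hosts. The samples were heterochronic HH8-HH4 grafts, with a donor incubated for 30 hours (stage HH8), and homochronic HH4-HH4 grafts, with a donor incubated for 20 hours (HH4), and every host was HH4. Each was collected at 0 hr (soon after grafting) or 3 hr, and each library pooled several grafts and held both donor and host cells. Each condition gave 1 library that could be used.

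Cells of the early embryo rest on, or move through, a matrix of secreted proteins. Basement membranes are sheets of laminin and type IV collagen under epithelia such as the epiblast, and cells that ingress through the primitive streak leave this sheet and enter a looser matrix rich in fibronectin. Integrins are paired alpha and beta receptors that bind these proteins and link them to the cytoskeleton.

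Graft cells were barcodes with at least 3 eGFP UMIs, and host cells those with 0 eGFP UMIs, among barcodes of at least 2000 UMIs. There were 2029 graft and 1726 host cells in HH8-HH4 0 hr, 116 and 232 in HH8-HH4 3 hr, 720 and 1764 in HH4-HH4 0 hr, and 72 and 181 in HH4-HH4 3 hr. The median depth over all barcodes ranged from 981 UMIs in HH8-HH4 3 hr, where 43.4% of barcodes passed the limit, to 38081 in HH4-HH4 3 hr. HOXA7, a Hox gene of the older posterior axis, stood at 2434 CPM in graft and 24.5 CPM in host cells of HH8-HH4 0 hr, and at 1794 CPM in graft and 20.3 CPM in host cells of HH8-HH4 3 hr, in the direction the labels give. In HH4-HH4 libraries its highest level was 2.5 CPM. HOXB8, another posterior Hox gene, stood at 42.8 CPM in graft and 92.3 CPM in host cells of HH4-HH4 3 hr, against at most 0.26 CPM in HH4-HH4 0 hr, and CDX4, a posterior homeobox gene, at 383 CPM in graft and 525 CPM in host cells, against 35.1 CPM in graft and 48.6 CPM in host cells at 0 hr. HH4-HH4 3 hr also had 0 graft and 0 host cells of the GSC class described below, with GSC at 0.12 CPM in its host cells, against 64.1 to 226 CPM in the other hosts, while another node gene, GNOT2, was at 417 CPM there, against 111 to 225 CPM in the other hosts. HH8 grafts also held more ectoderm markers than their hosts: a list of 6, of which 5 were among the genes of the files (TFAP2A, MSX1, GATA2, GATA3, DLX5) and 0 were at 0 in any group, summed to 2233 CPM in graft and 273 CPM in host cells at 0 hr, and to 675 CPM in graft and 168 CPM in host cells at 3 hr. MSX1, which is also expressed in posterior mesoderm, made up 1811 CPM of the graft and 224 CPM of the host sum at 0 hr. In HH4-HH4 the list summed to 293 and 279 CPM in grafts and 151 and 191 CPM in hosts. The part of these cells in the results below was not tested, except as given for cells without 4 of these markers. In summed cells, a higher share of cells that express a gene and more RNA per cell cannot be told apart. Values are UMIs summed over the cells of a group, 3′ libraries give no comparison between genes, and intervals cover counting error only.

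The first comparison asked whether HH8 graft cells differed from the HH4 host cells beside them in the same library. Of the 21 genes, 7 passed the edgeR quasi-likelihood test (adjusted p under 0.05 over all genes tested): 5 were higher in the graft (COL9A1, COL4A1, COL4A2, FN1, ITGB1BP3) and 2 were lower (COL1A2, ITGB5). Over all 4943 genes tested, 19.0% were called, 9.63% higher and 9.39% lower. The median log2 fold change of the 21 genes was 0.03, and that of all genes was 0.00. The test rests on 2 HH8-HH4 libraries, 1 at each time, fitted together with the 2 HH4-HH4 libraries, which left 2 residual degrees of freedom.

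**Figure D1:**
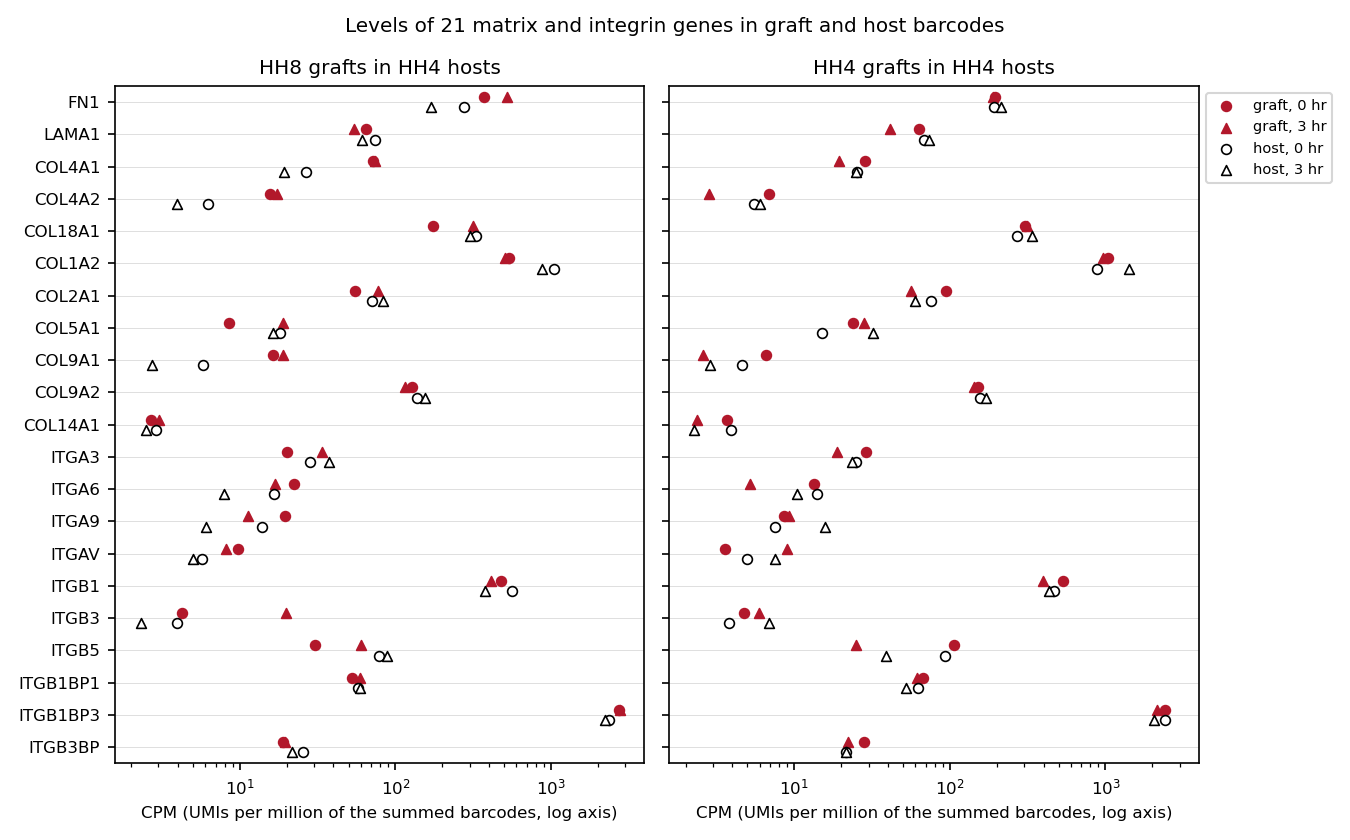
Levels of the 21 matrix and integrin genes (rows) as CPM of the summed cells, on a log axis, in HH8-HH4 libraries (left) and HH4-HH4 libraries (right). Filled red symbols are graft cells and open symbols host cells, circles 0 hr and triangles 3 hr. In HH8-HH4, both graft symbols of COL4A1 (72.0 and 73.5 CPM) lie right of both host symbols (26.8 and 19.3 CPM), whereas in HH4-HH4 graft and host symbols of this gene overlap.

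FN1 encodes fibronectin, the glycoprotein on which mesodermal cells migrate. It stood at 372 CPM in the graft and 276 CPM in the host of HH8-HH4 0 hr, and at 522 CPM in the graft and 168 CPM in the host of HH8-HH4 3 hr. Both HH8 grafts lay above every host and every HH4 graft of the series, which ranged from 168 to 276 CPM. The log2 fold change was 1.09 (SE 0.24, 2 libraries, adjusted p = 0.024), and the gap was wider at 3 hr, with a log2 ratio of 1.63 at 3 hr and 0.43 at 0 hr. Without HH8-HH4 3 hr the fitted value was 0.56 and without HH8-HH4 0 hr 1.67, each of which describes 1 HH8 library. Leaving out HH4-HH4 0 hr or HH4-HH4 3 hr took the call away.

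LAMA1, the only laminin chain of the 3 in the files that reached the limit, encodes an alpha chain of the early embryonic basement membrane. Its levels were 64.6 CPM in graft and 73.6 CPM in host cells at 0 hr, and 54.5 CPM in graft and 60.9 CPM in host cells at 3 hr. The gene did not pass the test (log2 fold change −0.09, SE 0.19).

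Of the basement membrane collagens, COL4A1 and COL4A2, the partner chains of the common type IV collagen network, both rose in the graft. COL4A1 had 72.0 CPM in the graft and 26.8 CPM in the host at 0 hr, and 73.5 CPM in the graft and 19.3 CPM in the host at 3 hr, a log2 fold change of 1.73 (SE 0.19, adjusted p = 0.0021). COL4A2 had 15.7 CPM in the graft and 6.23 CPM in the host at 0 hr, and 17.3 CPM in the graft and 3.98 CPM in the host at 3 hr, a log2 fold change of 1.71 (SE 0.35, adjusted p = 0.019). Graft and host values did not overlap for either gene, and the graft levels at the 2 times were close to each other. The pair are neighbours on chromosome 1 of the GRCg7b assembly. COL18A1, the chain of type XVIII collagen and source of endostatin, went another way: 176 CPM in graft and 329.7 CPM in host cells at 0 hr, and 315 CPM in graft and 302 CPM in host cells at 3 hr. It was lower in the graft at 0 hr alone, and the fit over both times did not pass (log2 fold change −0.36, SE 0.20, adjusted p = 0.25). Without HH8-HH4 3 hr it was called lower (−0.78, adjusted p = 0.00024), a value that describes 1 HH8 library with the spread taken from the other libraries.

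Among the fibrillar collagens, COL1A2, the alpha 2 chain of type I collagen, had 535 CPM in graft and 1052 CPM in host cells at 0 hr, and 509 CPM in graft and 874 CPM in host cells at 3 hr. Both grafts lay below both hosts, and below all values of HH4-HH4 libraries, of which the lowest was 877 CPM. The log2 fold change was −0.79 (SE 0.17, adjusted p = 0.023). The call was lost when graft cells were taken from 1 eGFP UMI (−0.61, adjusted p = 0.051), as were those of ITGB5 (0.11) and ITGB1BP3 (0.060), and in cells of none of the classes described below (−0.77, adjusted p = 0.059), as was that of ITGB1BP3 (0.17). COL2A1, the type II collagen chain of cartilage and notochord sheath, and COL5A1, a chain that joins type I fibrils, did not pass. COL5A1 had 8.55 CPM in graft and 18.2 CPM in host cells at 0 hr, and 19.0 CPM in graft and 16.3 CPM in host cells at 3 hr. Its direction thus differed between the times. Without HH8-HH4 3 hr its value was −0.97, which describes 1 HH8 library.

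Of the other collagens, COL9A1 rose and COL9A2 and COL14A1 did not pass. COL9A1 and COL9A2 encode chains of type IX collagen, which decorates fibrils. COL9A1 had 16.5 CPM in graft and 5.80 CPM in host cells at 0 hr, and 19.0 CPM in graft and 2.72 CPM in host cells at 3 hr. Graft and host did not overlap, and the log2 fold change was 2.04 (SE 0.33, adjusted p = 0.0084), the largest of the 21 genes in this comparison; the host value at 3 hr rests on 13 UMIs. COL9A2 had 128 CPM in graft and 137 CPM in host cells at 0 hr, and 115 CPM in graft and 155 CPM in host cells at 3 hr (log2 fold change −0.17, SE 0.13). COL9A1 thus passed and COL9A2 did not, and the difference between the chains was not tested. COL9A3, of the same collagen, had at most 16 UMIs in a library. COL14A1, of a collagen that associates with fibrils, stood between 2.51 and 3.03 CPM in all 4 groups of the HH8-HH4 libraries.

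Of the 7 integrin subunits described, only ITGB5 passed the test. It encodes the beta partner of ITGAV in a receptor for vitronectin and other ligands with the RGD motif. ITGB5 had 30.3 CPM in graft and 79.0 CPM in host cells at 0 hr, and 60.1 CPM in graft and 87.7 CPM in host cells at 3 hr, with both grafts below both hosts (log2 fold change −0.91, SE 0.25, adjusted p = 0.047). This call was lost without HH4-HH4 0 hr (adjusted p = 0.062), HH4-HH4 3 hr (0.060) or HH8-HH4 0 hr (0.28), and without HH8-HH4 0 hr the value was −0.50. ITGB1, the beta subunit common to most matrix receptors, had 481 CPM in graft and 564 CPM in host cells at 0 hr, and 409.6 CPM in graft and 378 CPM in host cells at 3 hr, and its log2 fold change was 0.02 (SE 0.11).

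The alpha subunits ITGAV (RGD receptors), ITGA6 (laminin receptors) and ITGA9 (receptors for tenascin and other ligands) were above the host in both HH8-HH4 libraries without passing the test. ITGA6 had 22.5 CPM in graft and 16.6 CPM in host cells at 0 hr, and 16.9 CPM in graft and 7.96 CPM in host cells at 3 hr (log2 fold change 0.77, SE 0.26, adjusted p = 0.089). ITGAV and ITGA9 had log2 fold changes of 0.85 (adjusted p = 0.074) and 0.72 (adjusted p = 0.11). Without HH8-HH4 3 hr the ITGAV value was 0.90, which describes 1 HH8 library. ITGA3, the alpha subunit of another laminin receptor, had a log2 fold change of −0.27 (adjusted p = 0.33).

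ITGB3, the beta subunit that pairs with ITGAV and, on platelets, with ITGA2B, differed between the times more than any other of the 21 genes. It had 4.25 CPM in graft and 3.95 CPM in host cells at 0 hr, and 19.9 CPM in graft and 2.30 CPM in host cells at 3 hr. The 3 hr graft stood above all other groups of the series, which ranged from 2.30 to 6.87 CPM. The fit over both times did not pass (log2 fold change 1.35, SE 0.61, adjusted p = 0.16). Without HH8-HH4 0 hr the value was 3.15, which describes 1 HH8 library. The 46 UMIs in the 3 hr graft came from 30 of 116 cells (25.9%), with at most 4 in a cell, against 9 of 232 host cells (3.88%). Median depth was 19188 UMIs in the graft and 20814 UMIs in the host. After each cell had been thinned to 2000 UMIs, the shares were 3.45% in the graft (95% exact interval 0.947% to 8.59%) and 0.862% in the host (0.105% to 3.08%), and the intervals overlapped. Markers of blood and endothelium moved with it: a list of 8, of which 6 were among the genes of the files and 1 of these was at 0 in this graft, summed to 84.3 CPM in the 3 hr graft and 24.1 CPM in its host, against 28.8 CPM in the 0 hr graft and 32.7 CPM in its host. CDH5, which defines endothelium, was at 6.9 CPM in the 3 hr graft and 0.2 CPM in its host. ITGB3 had 37.3 CPM in the 32 graft cells with a UMI of that list and 12.8 CPM in the 84 graft cells without one, and in the 171 host cells without one it had 1.3 CPM. The list is sparse, so a cell without a UMI of it can still be a blood or endothelium cell. The part of such cells in the ITGB3 level was not tested.

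Of the genes that the rule took by name alone, ITGB1BP1, a cytoplasmic protein that binds the ITGB1 tail, and ITGB3BP, known in human as a centromere protein, did not pass. ITGB1BP3, a name that belongs in human to a nicotinamide riboside kinase and not to a matrix receptor, was slightly higher: it had 2748 CPM in graft and 2351 CPM in host cells at 0 hr, and 2784 CPM in graft and 2218 CPM in host cells at 3 hr. Both grafts lay above both hosts (log2 fold change 0.36, SE 0.07, adjusted p = 0.018). The call was lost without HH4-HH4 0 hr (adjusted p = 0.051), HH8-HH4 0 hr (0.078) or HH8-HH4 3 hr (0.061).

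The same comparison in homochronic grafts shares the grafting and the transgene but not the older donor. Of the 21 genes, 0 were called between HH4 graft and host cells by edgeR, as were 0 of all 4943 genes (0% called). At an unadjusted p under 0.05 there were 0 of the 21 and 304 of all genes, and DESeq2 called 0 of the 21 and 9 of all genes. FN1 had 196 CPM in graft and 193 CPM in host cells at 0 hr, and 189 CPM in graft and 212 CPM in host cells at 3 hr. COL4A1 had 28.5 CPM in graft and 25.3 CPM in host cells at 0 hr, and 19.4 CPM in graft and 25.0 CPM in host cells at 3 hr. For both genes the graft was above the host at 0 hr and below it at 3 hr. For COL1A2, graft and host values were 1038 and 877 CPM at 0 hr and 962 and 1407 CPM at 3 hr, again in opposite directions.

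The difference between the donor stages was tested as a contrast of the graft to host differences. COL4A1 was the 1 of the 21 genes called, and it was higher, with a log2 difference of 1.77 (SE 0.26, adjusted p = 0.012), and over all genes 8.70% were called, 3.94% higher and 4.75% lower. FN1 (1.13, adjusted p = 0.087), COL4A2 (1.85, adjusted p = 0.072) and COL9A1 (1.72, adjusted p = 0.076) had positive differences that did not pass. At an unadjusted p under 0.05 there were 9 of the 21 and 1278 of all 4943 genes. The COL4A1 call was lost without HH4-HH4 0 hr (2.06) or HH4-HH4 3 hr (1.54). Of 15 alternatives run, 11 kept the COL4A1 call, and its lowest value was 0.93. In MSGN1 cells alone, a class described below, FN1 was called by edgeR (1.06, adjusted p = 0.037) and COL4A1 was not. COL4A1 had 30.5 CPM in graft and 25.4 CPM in host MSGN1 cells of HH4-HH4 0 hr. In HH4-HH4 3 hr it had 25.4 CPM in graft and 21.3 CPM in host MSGN1 cells. Which other genes were called depended on the library left out as well. Each of those fits leaves 1 library of a donor stage, which gives no spread of its own.

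**Figure D2:**
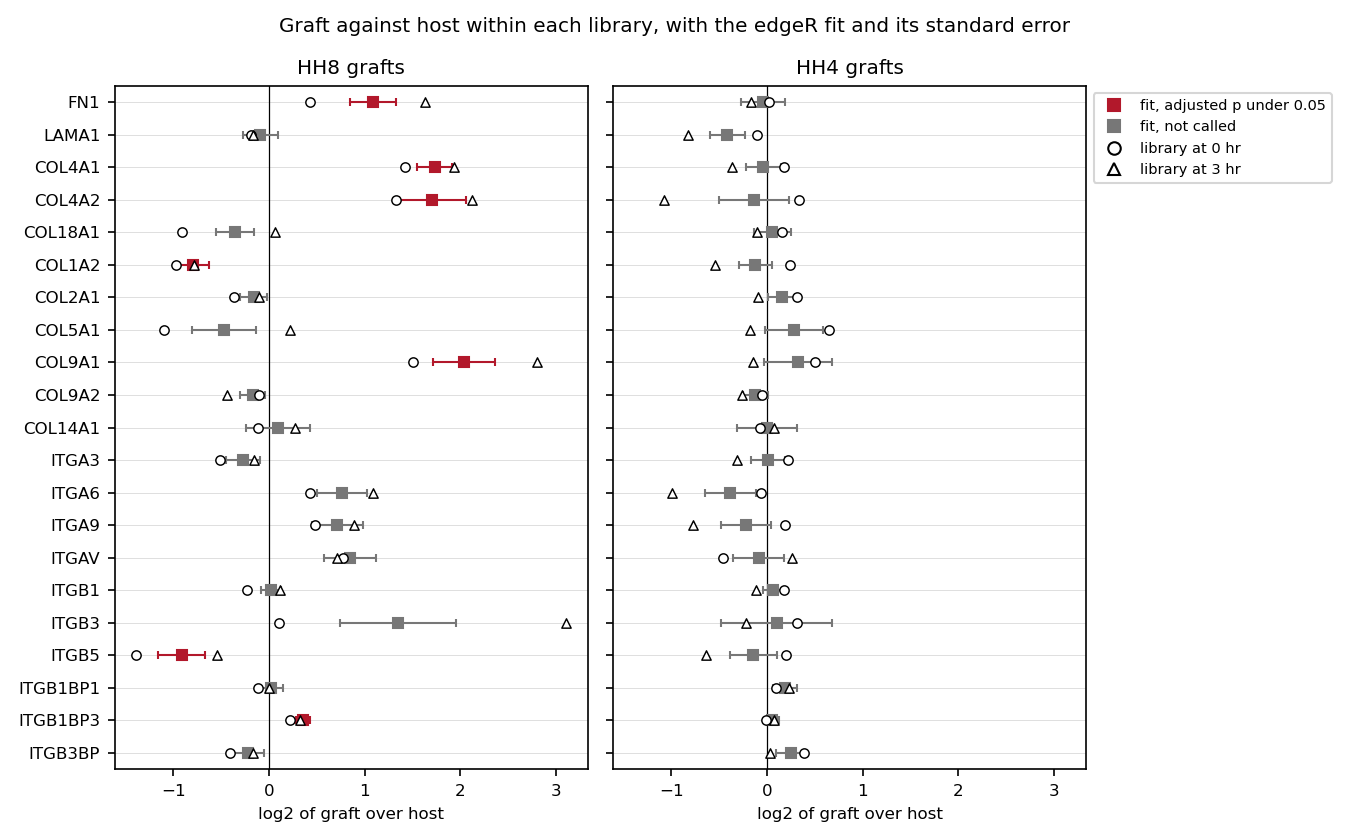
Log2 of graft over host for each of the 21 genes (rows), for HH8 grafts (left) and HH4 grafts (right). Squares with bars are the edgeR estimate and its standard error, red where the adjusted p was under 0.05; open circles are the library at 0 hr and open triangles the library at 3 hr. In HH8 grafts 7 squares are red, in HH4 grafts 0, and the ITGB3 triangle in HH8 grafts lies far from its circle (3.11 and 0.11).

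Because the grafts did not hold the same cells as their hosts, the levels were also compared within classes defined by 1 marker each, with at least 3 UMIs of it and under 3 of each of the other markers: MSGN1 (ingressed paraxial mesoderm), SOX3 (epiblast), GSC (node) and SOX17 (endoderm). The authors report that GSC is also expressed in the medial somite progenitor region, so the GSC class can hold cells outside the node. MSGN1 cells made up 26.1% of graft and 38.6% of host cells in HH8-HH4 0 hr, and 11.2% of graft and 33.6% of host cells in HH8-HH4 3 hr. Cells in none of the classes made up 69.7% of graft and 28.3% of host cells at 0 hr, and 75.9% of graft and 41.8% of host cells at 3 hr. At 3 hr only 13 graft cells were MSGN1 cells and 13 were SOX3 cells.

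Within MSGN1 cells, COL4A1 remained higher in the HH8 graft, with 58.2 CPM in graft and 27.0 CPM in host cells at 0 hr, and 39.7 CPM in graft and 18.8 CPM in host cells at 3 hr (log2 fold change 1.21, adjusted p = 0.0070). Its partner COL4A2 did not: it had 7.6 CPM in graft and 8.1 CPM in host cells at 0 hr, and 3.1 CPM in graft and 6.3 CPM in host cells at 3 hr, where the graft value is 1 UMI (log2 fold change −0.08, adjusted p = 0.95). In SOX3 cells and in cells of none of the classes both genes were above the host at both times. COL4A2 had 29.2 CPM in graft and 8.5 CPM in host SOX3 cells at 0 hr, and 18.3 CPM in graft and 3.5 CPM in host cells of none of the classes at 0 hr. The 2 chains of the type IV network thus differed from each other in the cells in which the graft was higher, and the difference between the chains was not tested.

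FN1 and COL1A2 kept their calls within MSGN1 cells, with log2 fold changes of 0.94 (adjusted p = 0.0094) and −0.81 (adjusted p = 0.015), whereas COL9A1 (0.87, adjusted p = 0.33) and ITGB5 (−0.98, adjusted p = 0.070) did not. COL18A1 and ITGA3 were called lower in HH8 graft MSGN1 cells (−0.73, adjusted p = 0.026, and −0.996, adjusted p = 0.048). The 3 hr graft value of ITGA3 in these cells rests on 3 UMIs in 13 cells. With only cells that had no UMI of TFAP2A, GATA2, GATA3 or DLX5 (MSX1 was not used), a limit added after the data had been seen, COL4A1 (1.23, adjusted p = 0.0051), COL1A2 (−0.47, adjusted p = 0.029), ITGB1BP3 (0.36, adjusted p = 0.026) and ITGB5 (−1.72, adjusted p = 0.00022) passed, while FN1 (0.61, adjusted p = 0.16), COL4A2 (1.01, adjusted p = 0.20) and COL9A1 (1.16, adjusted p = 0.17) did not. COL18A1, not called over all cells, was called lower in the cells without such a UMI (−0.73, adjusted p = 0.020). Graft cells of HH8-HH4 0 hr with such a UMI had more FN1 than those without (411 and 235 CPM), and their host cells without one had 278 CPM. At 3 hr the FN1 levels of graft cells with and without such a UMI were 518 and 533 CPM, against 195 CPM in host cells without one. In the cells without such a UMI, FN1 was therefore below the host at 0 hr and above it at 3 hr.

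**Figure D3:**
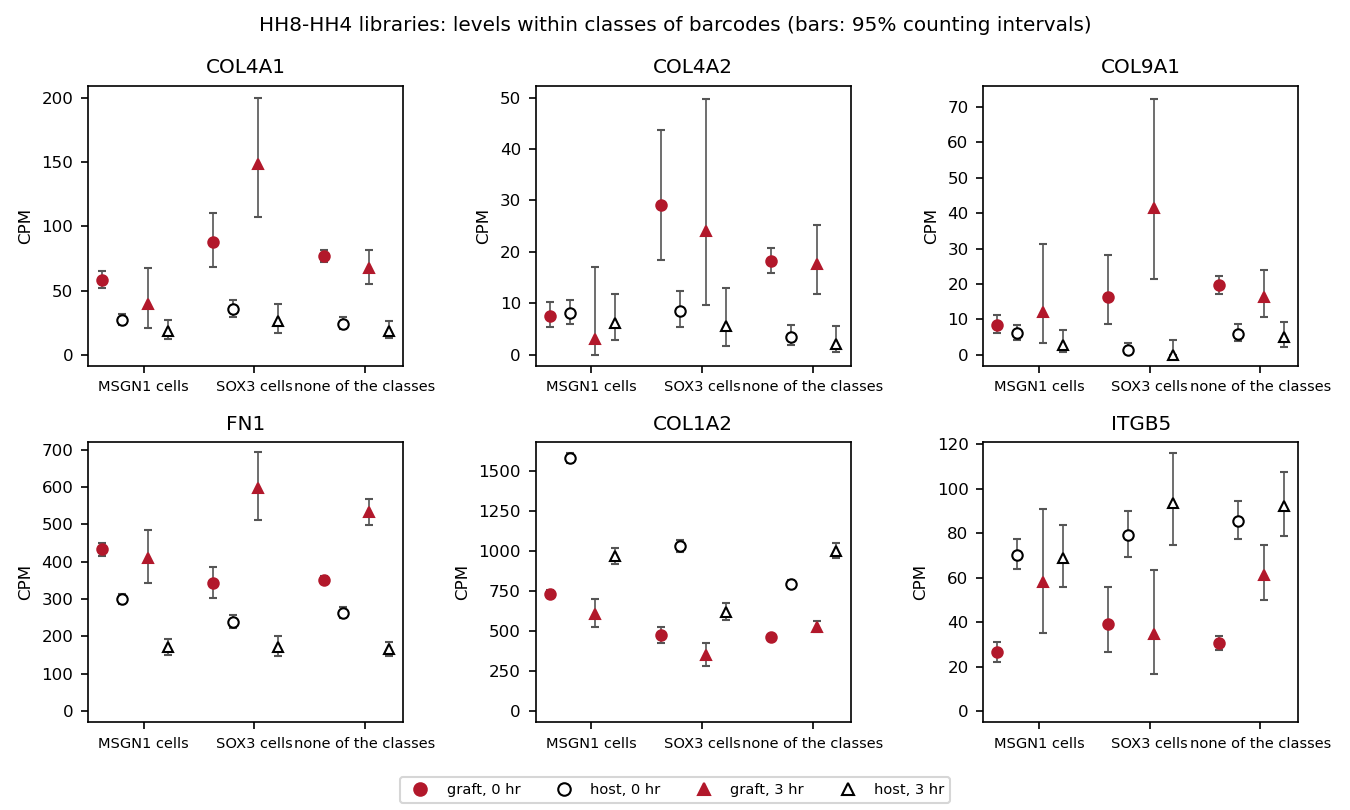
Levels (CPM) of 6 genes within MSGN1 cells, SOX3 cells and cells of none of the 4 classes in the HH8-HH4 libraries. Filled red symbols are graft and open symbols host cells, circles 0 hr and triangles 3 hr, and bars are exact 95% Poisson counting intervals. COL4A1 graft symbols lie above their hosts in all 3 groups of cells, those of COL4A2 only outside MSGN1 cells, and those of COL1A2 lie below their hosts in all 3.

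Other genes of the matrix and adhesion pathways, from lists of symbols, were read beside the 21, and their counts stand against the 9.63% of all genes called higher and 9.39% called lower in HH8 grafts. In HH8 grafts against hosts, 2 of 3 tested basement membrane partners were called, both lower: AGRN (−0.91), an organiser that binds laminin, and SPARC (−1.32), a glycoprotein that binds collagen. Of 12 interstitial matrix genes, FBLN1 (1.83), HAPLN1 (1.48) and THBS1 (0.98) were higher and VTN, which encodes vitronectin, a ligand of ITGAV and ITGB5 receptors, was lower (−0.92). VTN stood at 60.8 CPM in graft and 137 CPM in host cells at 0 hr, and at 90.0 CPM in graft and 158 CPM in host cells at 3 hr, without overlap.

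Of 9 genes for collagen folding and crosslinking, P4HA1 (0.86) and P4HB (0.36), subunits of the enzyme that hydroxylates collagen prolines, were higher and 0 were lower. Of 7 matrix proteases and inhibitors, TIMP3 (1.12) and MMP2 (3.97) were higher, but MMP2, a gelatinase, stood at 17.7 CPM in the HH8 graft and 0.84 CPM in the host at 3 hr, and at 0.21 CPM in the graft and 0.062 CPM in the host at 0 hr. In the 3 hr graft it had 52.3 CPM in the 32 cells with a blood or endothelium UMI and 3.7 CPM in the 84 without. Of 16 genes of the integrin adhesion complex, VCL (1.01) and TNS1 (0.61) were higher and LIMS1 (−2.82), CD81 (−0.98) and PTK2, which encodes focal adhesion kinase (−0.70), were lower. LIMS1, an adaptor of the ILK complex, had 13.4 CPM in graft and 131 CPM in host cells at 0 hr, and 21.2 CPM in graft and 108 CPM in host cells at 3 hr. In the contrast of the graft to host differences between donor stages, LIMS1 was also called (−2.47, SE 0.29, adjusted p = 0.0065). In HH4 grafts against hosts 0 genes of these lists were called.

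Time after grafting was compared between single libraries, so these values have no replicate check and no test; genes are counted as different at 2-fold or more, with at least 100 UMIs over both groups. In HH8 grafts at 3 hr against 0 hr, 2 of 20 genes counted passed that limit, both higher at 3 hr, against 6.26% of all genes counted (3.48% higher, 2.78% lower). ITGB3 had 19.9 CPM at 3 hr and 4.25 CPM at 0 hr (4.68-fold), and COL5A1 19.0 CPM at 3 hr and 8.55 CPM at 0 hr (2.23-fold). FN1 (522 CPM at 3 hr and 372 CPM at 0 hr) and COL18A1 (315 CPM at 3 hr and 176 CPM at 0 hr) differed by less, and COL4A1 was nearly level (73.5 CPM at 3 hr and 72.0 CPM at 0 hr). In HH4 grafts, 2 of 16 genes passed, both lower at 3 hr, against 6.51% of all genes counted (2.15% higher, 4.37% lower). ITGB5 had 25.1 CPM at 3 hr and 106 CPM at 0 hr (4.22-fold lower), and ITGA6 5.21 CPM at 3 hr and 13.5 CPM at 0 hr (2.59-fold lower). The host cells of HH4-HH4 3 hr also had the lowest ITGB5 of all hosts (39.1 CPM, against 79.0 to 92.5 CPM), and this library had no GSC class cells and more HOXB8 and CDX4 than HH4-HH4 0 hr; the part of its cell content in these values was not tested.

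The grafts of both donor stages at the same time were set side by side in the same way, using the same graft cells as above. At 0 hr, 7 of 20 genes passed 2-fold (13.4% of all genes counted, 5.35% higher and 8.03% lower): COL4A1 (72.0 CPM in HH8 and 28.5 CPM in HH4 grafts), COL4A2, COL9A1, ITGA9 and ITGAV were higher in HH8 grafts, and COL5A1 and ITGB5 were lower (30.3 CPM in HH8 and 106 CPM in HH4 grafts for ITGB5). At 3 hr, 3 of 14 genes passed (7.20% of all genes counted, 3.77% higher and 3.43% lower), all higher in HH8 grafts: COL4A1 (73.5 CPM in HH8 and 19.4 CPM in HH4 grafts), FN1 (522 CPM in HH8 and 189 CPM in HH4 grafts) and ITGB5 (60.1 CPM in HH8 and 25.1 CPM in HH4 grafts). COL9A1, COL4A2, ITGA6, ITGB3, ITGA9, COL14A1 and ITGAV had too few UMIs over both groups to be counted at 3 hr. COL9A1 stood at 19.0 CPM in HH8 and 2.60 CPM in HH4 grafts, and COL4A2 at 17.3 and 2.84 CPM. ITGA6 (16.9 and 5.21 CPM) and ITGB3 (19.9 and 5.92 CPM) were also higher in HH8 grafts. Levels were closer for ITGA9 (11.2 and 9.23 CPM), COL14A1 (3.03 and 2.37 CPM) and ITGAV (8.22 and 8.99 CPM). ITGB5 thus pointed in opposite directions at the 2 times, while COL4A1 was higher in HH8 grafts at both. ITGB5 was also low in the host cells of HH4-HH4 3 hr (39.1 CPM). Against their own hosts, HH8 grafts had less ITGB5 at both times.

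Hosts were HH4 at grafting in all libraries, and the libraries, collected at 0 or 3 hr, served as replicates for differences between classes of host cells. The spread between them thus includes any change between 0 and 3 hr. The hosts of HH4-HH4 3 hr also had more HOXB8 and CDX4 than those of HH4-HH4 0 hr. The classes carried their other markers: in HH4-HH4 0 hr, ADMP of the node stood at 848 CPM in GSC cells and at most 20.8 CPM in the other 3 classes, APOA1 of the endoderm at 2201 CPM in SOX17 cells and at most 60.3 CPM in the others, and PDGFA of the epiblast at 99.4 CPM in SOX3 cells and at most 10.5 CPM in the others. MSGN1 cells numbered 78 to 666 and SOX3 cells 31 to 354 per library. GSC cells (20 to 223) and SOX17 cells (6 to 74) entered from 3 libraries, since HH4-HH4 3 hr held 0 and 1 of them.

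Between MSGN1 mesoderm and SOX3 epiblast cells, 6 of the 21 genes were called, 4 higher and 2 lower in mesoderm (24.6% of 4673 genes called, 12.9% higher and 11.7% lower). ITGA6, whose receptors bind laminin, was lower: it had 8.25, 6.42, 6.92 and 6.26 CPM in MSGN1 cells of the HH4-HH4 hosts at 0 and 3 hr and the HH8-HH4 hosts at 0 and 3 hr, against 20.8, 15.3, 27.8 and 13.4 CPM in SOX3 cells of the same libraries. All 4 mesoderm values lay below all 4 epiblast values, and the log2 fold change was −1.50 (SE 0.19, adjusted p = 3.2e-05). LAMA1 was also lower, with 59.9, 67.7, 66.3 and 53.6 CPM in MSGN1 cells against 90.2, 74.9, 102 and 88.1 CPM in SOX3 cells, again without overlap (−0.52, SE 0.12, adjusted p = 0.0049). A laminin chain and a laminin receptor subunit were therefore both lower in ingressed mesoderm than in epiblast. ITGA3, the other alpha subunit of laminin receptors described here, did not pass (−0.22, adjusted p = 0.31).

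COL18A1, COL5A1, ITGB3 and ITGB1 were higher in MSGN1 cells. COL18A1 had 329, 409, 427 and 363 CPM in MSGN1 cells, against 229, 254, 241 and 231 CPM in SOX3 cells of the same libraries, without overlap (0.65, SE 0.08, adjusted p = 1.9e-05). COL5A1 had 21.6, 50.2, 28.3 and 14.6 CPM in MSGN1 cells, against 11.3, 13.7, 8.47 and 13.4 CPM in SOX3 cells, and the groups did not overlap, although in HH8-HH4 3 hr the values were close (1.30, SE 0.20, adjusted p = 0.00021). ITGB3 had 6.82, 9.05, 7.25 and 2.78 CPM in MSGN1 cells, against 2.47, 3.14, 1.69 and 2.23 CPM in SOX3 cells, where the mesoderm value of HH8-HH4 3 hr lay within the epiblast range (1.53, SE 0.32, adjusted p = 0.0022). ITGB1 was higher by a log2 value of 0.31 (SE 0.10, adjusted p = 0.030). Without HH4-HH4 0 hr the calls of ITGB1 (adjusted p = 0.11), ITGB3 (0.052) and LAMA1 (0.068) were lost, and without HH4-HH4 3 hr that of ITGB1 (0.22). COL1A2 (0.52, adjusted p = 0.095) and FN1 (0.32, adjusted p = 0.13) did not pass, although COL1A2 was higher in mesoderm within each of the 4 libraries, and without HH8-HH4 3 hr it was called (0.49, adjusted p = 0.0059).

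**Figure D4:**
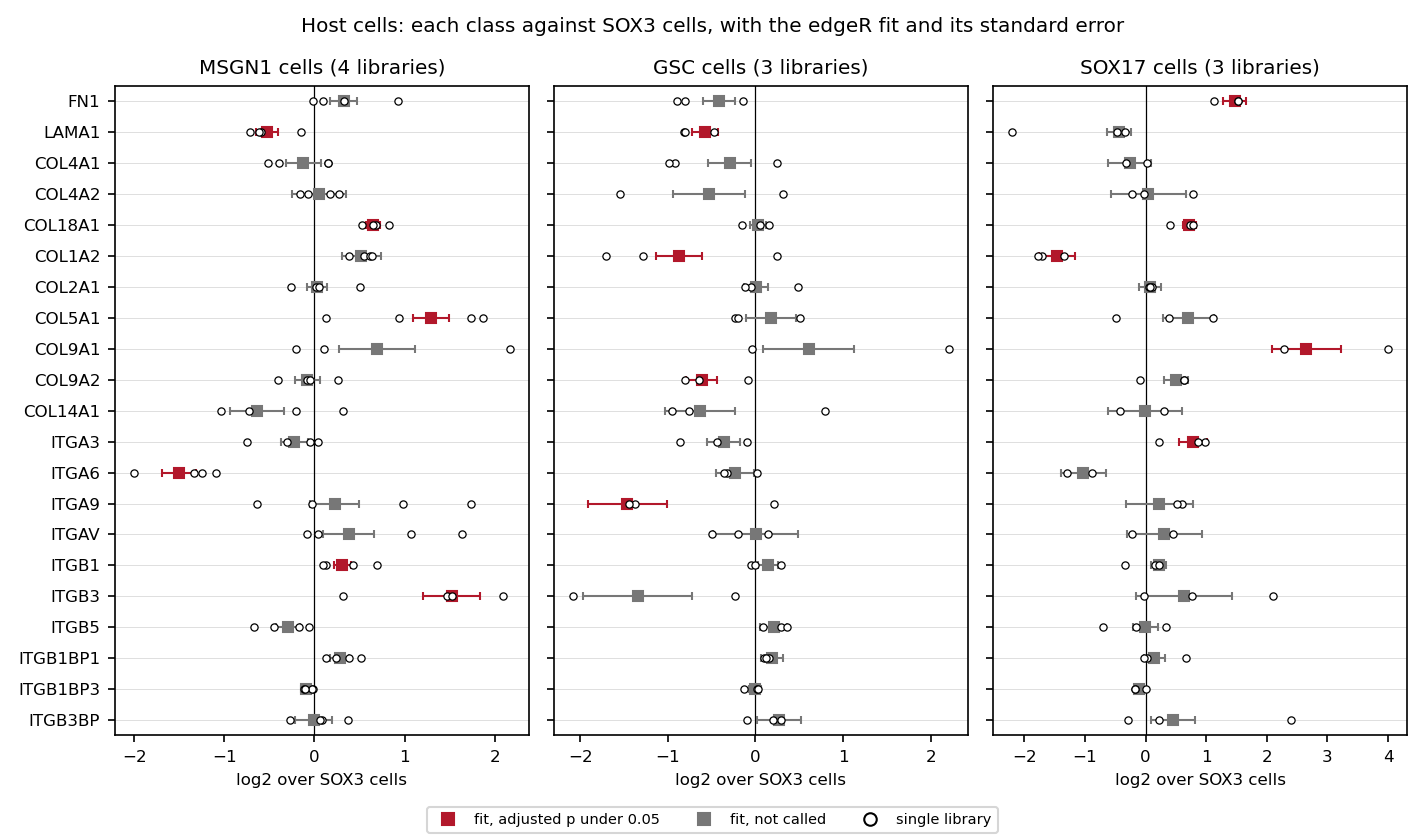
Log2 of MSGN1, GSC and SOX17 host cells over SOX3 host cells for the 21 genes (rows). Squares with bars are the edgeR estimate and its standard error, red where the adjusted p was under 0.05, and open circles are single libraries in which both groups had a UMI. MSGN1 cells have 6 red squares, GSC cells 4, all left of 0, and SOX17 cells 5.

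In SOX17 endoderm against SOX3 epiblast cells, 5 of the 21 genes were called, 4 higher and 1 lower (16.4% of genes called, 9.20% higher and 7.19% lower). FN1 had 547, 522 and 497 CPM in SOX17 cells of the HH4-HH4 host at 0 hr and the HH8-HH4 hosts at 0 and 3 hr, against 189.6, 239 and 173 CPM in SOX3 cells of the same libraries. The 3 endoderm values were close to each other and all above the epiblast values (1.47, SE 0.19, adjusted p = 3.8e-05). COL1A2 was lower, with 359.8, 316 and 182 CPM in SOX17 cells against 910.2, 1030 and 622 CPM in SOX3 cells, without overlap (−1.46, SE 0.30, adjusted p = 0.0029). COL18A1 (0.72, adjusted p = 0.00016), COL9A1 (2.65, adjusted p = 0.0044) and ITGA3 (0.78, adjusted p = 0.031) were higher. COL9A1 had 18.9, 21.7 and 0 CPM in SOX17 cells against 3.88, 1.36 and 0 CPM in SOX3 cells, so that it was seen in 2 of these 3 libraries; the 6 SOX17 cells of HH8-HH4 3 hr could not show a level of this size. The calls of COL9A1 and ITGA3 were lost without HH4-HH4 0 hr (adjusted p = 0.056 and 0.29) or HH8-HH4 0 hr (0.11 and 0.22).

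In GSC cells against SOX3 epiblast cells, 4 of the 21 genes were called, all lower (13.4% of genes called, 6.78% higher and 6.59% lower): LAMA1 (−0.57, SE 0.15, adjusted p = 0.017), COL9A2 (−0.61, SE 0.17, adjusted p = 0.028), COL1A2 (−0.87, SE 0.26, adjusted p = 0.038) and ITGA9 (−1.46, SE 0.45, adjusted p = 0.041). COL1A2 had 376, 316 and 739.9 CPM in GSC cells of these 3 hosts, in the same order, against 910.2, 1030 and 622 CPM in SOX3 cells, and thus went the other way in HH8-HH4 3 hr. The ITGA9 values there, 3.87 CPM in GSC and 3.34 CPM in SOX3 cells, rest on 2 and 3 UMIs and show no direction. LAMA1 had 64.9, 57.9 and 50.4 CPM in GSC cells against 90.2, 102 and 88.1 CPM in SOX3 cells, without overlap. All 4 calls were lost without HH4-HH4 0 hr (adjusted p = 0.11 to 0.36) or without HH8-HH4 0 hr (0.17 to 0.36), and that of ITGA9 without HH4-HH4 3 hr as well (0.054).

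Of the wider lists, 6 of 9 interstitial matrix genes tested were called in SOX17 cells, with FBLN1 (3.88), HAS2, a hyaluronan synthase (5.35), HAPLN1, which links hyaluronan to proteoglycans (4.52), TNC (2.71) and VCAN (1.17) higher and VTN lower (−0.84). HAPLN1 and HAS2 were also called higher in MSGN1 cells (3.67 and 1.86) and GSC cells (2.15 and 3.88). In MSGN1 cells, VTN was lower (−0.52). Of 9 collagen folding and crosslinking genes, LOXL2 (1.99), a collagen crosslinking enzyme, P4HA2 (1.50) and CRTAP (0.43) were higher and P4HB was lower (−0.23) in MSGN1 cells. Of 6 proteases and inhibitors, MMP9 (1.61), TIMP3 (1.08) and ADAM10 (0.50) were higher there and 0 lower, and of 3 basement membrane partners AGRN was higher (0.34) and DAG1, a laminin receptor, lower (−0.75). Of 15 integrin adhesion genes tested, 5 were higher and 0 lower in MSGN1 cells, 6 and 0 in SOX17 cells, and 5 and 1 in GSC cells. Over all genes, 12.9% were higher and 11.7% lower in MSGN1 cells, 9.20% and 7.19% in SOX17 cells, and 6.78% and 6.59% in GSC cells.

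Between hosts at 3 hr and hosts at 0 hr, 2 libraries against 2, edgeR called 0 of the 21 genes and 0 of all 4781 genes (0% called). At an unadjusted p under 0.05 there were 2 of the 21 and 443 of all genes, and DESeq2 called 0 of the 21 and 101 of all genes. Without HH8-HH4 3 hr, 1 library is left at 3 hr, and the values were 0.63 for COL1A2, 1.03 for COL5A1 and −1.05 for ITGB5. That comparison sets HH4-HH4 3 hr, the library without GSC class cells, against both 0 hr hosts.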

How the data were processed

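UMI counts per gene and cell barcode were deposited without normalisation. The authors made these counts with Cell Ranger 6.1.1 from 10x Genomics 3′ libraries against galGal6 with an eGFP entry. Of 2757 barcodes in replicate 2 of HH4-HH4 0 hr, 2755 also stood in replicate 1. Replicate 1 gave no gene names and no GFP UMIs, so it was set aside and the pair counted as 1 library. Labels give 5 to 10 pooled grafts per library, so p-values measure the spread between libraries. In the graft fit it is the spread of the graft to host difference between the 0 hr and 3 hr libraries of a donor stage. There, time and library cannot be told apart. Where a library was left out of the graft fit, its donor stage kept 1 library, which gave no spread of its own. SNAI2 was not listed in HH4-HH4 3 hr. Barcodes with 1 or 2 eGFP UMIs were left out. Scrublet (scanpy 1.11.5, expected rate 6%) called 98 of 8039 barcodes doublets (1.22%), which were kept. The 4 libraries shared 5 barcodes.

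Counts were summed per library and group of cells and tested with edgeR 4.0.16 (R 4.3.3; TMM, quasi-likelihood F test, Benjamini-Hochberg over all genes with at least 50 UMIs over the sums, library as a block except between hosts). The class fit had 14 sums of at least 5 cells and 7 residual degrees of freedom, the graft fit 8 sums and 2, and the host fit 4 sums and 2. Marker genes were left out of the class fit and eGFP out of the graft fit. Standard errors were the absolute log2 fold change over the root of F. The fits were also run on simulated counts with the same dispersion for every gene and no library differences beyond size. Those runs give no error rate for the real data. Described genes were all members with at least 100 UMIs in a library. Members and lists were chosen with earlier results of these data known. Alternatives included DESeq2 1.42.0, other depth, eGFP and marker limits, thinning to 2000 UMIs, doublets left out and each library left out. Sums and intervals were computed in Python 3.11.15 (scipy 1.17.1, numpy 2.4.6, pandas 2.3.3).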

Additional observations from a re-analysis of the deposited data

Results flagged for a closer look

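COL4A1 differed between donor stages in its graft to host difference: the log2 value in HH8 grafts minus that in HH4 grafts was 1.77 (SE 0.26, edgeR adjusted p = 0.012), with the graft above the host in both HH8-HH4 libraries and in 1 of the 2 HH4-HH4 libraries. Within each condition there was 1 library, and the HH8 grafts also had a higher sum of ectoderm markers. At 0 hr most of that sum was MSX1, which is also expressed in posterior mesoderm. With only cells without UMIs of TFAP2A, GATA2, GATA3 or DLX5 the value was 1.21 (adjusted p = 0.058). In MSGN1 cells alone the gene was not called. For 20 genes the log2 ratio of MSGN1 over SOX3 host cells could be compared over the 4 libraries, and 0 had a library beyond Dixon's limit. With 4 values that limit is a gap of 0.829 of the range, so this count does not show that the libraries were alike.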

How the results depend on the processing

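No paired analysis was possible because the groups share fewer than 2 replicate numbers; the block in the fits was the library, which holds graft and host cells together. The planned use of replicate 1 of HH4-HH4 0 hr was not run, since its genes have no names. COL4A2 turned direction in MSGN1 cells alone, to −0.081 in HH8 graft against host and −0.051 in HH8 against HH4 grafts at 0 hr. Counts of called genes moved as follows. HH8 graft against host gave 4 with at least 1 eGFP UMI. The difference between donor stages gave 2 in cells of none of the classes (COL4A1 and COL4A2) and 2 in cells without UMIs of TFAP2A, GATA2, GATA3 or DLX5 (COL5A1 and ITGB5), both chosen after seeing the data. GSC cells gave 0 and SOX17 cells 2 with at least 2 marker UMIs and 0 of the others, and DESeq2 gave 2 for GSC cells. Leaving out each library gave 4 to 9 for HH8 graft against host, 0 to 8 for the difference, 0 to 3 between hosts, 3 to 7 for MSGN1, 0 to 4 for GSC and 3 to 6 for SOX17 cells. Counts past 2-fold for HH8 grafts over time were 1 (thinned) and 4 (at least 5000 UMIs). For HH4 grafts over time they were 1 (thinned), 4 (at least 1 eGFP UMI) and 1 (MSGN1 cells). For HH8 against HH4 grafts they were 1 (thinned) and 3 (MSGN1 cells) at 0 hr, and 1 (MSGN1 cells) at 3 hr. Thinning leaves fewer genes with 100 UMIs. Each count past 2-fold is given here without the number of genes counted or the share of all genes past 2-fold in that setting. The counts of called genes are likewise given without the share of all genes called in the same setting, and that share also moved between settings. A count above or below the one given earlier therefore cannot be read as a change in the described genes. Over single genes, 328 alternatives kept direction and call, 51 lost the call, 19 moved and 2 turned. Over all genes, calls ranged from 531 to 1063 around 940 (HH8 graft against host), 78 to 806 around 430 (difference), 0 to 113 around 0 (HH4 graft against host), 0 to 648 around 0 (hosts), 626 to 1182 around 1149 (MSGN1), 242 to 662 around 625 (GSC) and 271 to 803 around 766 (SOX17). Calls held under every alternative run for COL4A1 in HH8 graft against host (15 of 15), COL18A1, COL5A1 and ITGA6 in MSGN1 cells, and FN1 and COL18A1 in SOX17 cells (14 of 14 each).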
